A study of Danio rerio with 14 samples.

Results

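A set of 58 genes was at least 4-fold lower in *il11a*OE hearts than in control hearts at 2 time points, 7 days post tamoxifen treatment (7 dpt) and 7 months post tamoxifen treatment (7 mpt). Counts of each library were scaled to its total (CPM, in units of counts per 1000000). The genes were chosen by these values, with a mean control CPM of 1 or more at both time points and a mean *il11a*OE CPM of at most 0.25 times the control mean at both. Of 32520 genes counted, 12245 had the required control level, and 58 of these met both ratios. The control level and the ratio to control therefore define the set and are given below as a description. The libraries were bulk RNA-seq of pooled uninjured zebrafish hearts, with 3 control and 3 *il11a*OE libraries at 7 dpt and 4 of each at 7 mpt. All fish were of the EK strain, carried actb2:loxp-BFP-stop-loxp-il11a and had been bathed in 5 µM tamoxifen for 24 h as adults. The *il11a*OE fish also carried cmlc2:creER, in which the cardiomyocyte promoter *cmlc2* drives CreER, so that tamoxifen removes the stop cassette in cardiomyocytes and the *actb2* promoter then drives *il11a* there. Controls had no CreER, so an effect of CreER itself cannot be told apart from that of *il11a*. The labels do not say which fish entered which library, nor what the letters F and M in the library names of 7 mpt stand for, and the study's methods give 3 pools per group where 4 libraries were analysed at 7 mpt.

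Il11 is a cytokine of the interleukin 6 family that signals through its receptor Il11ra and the shared subunit Gp130 to Stat3 and Erk. The adult heart lives mainly on fatty acids, and cardiomyocytes buffer their ATP through creatine kinase and the mitochondrial ADP/ATP carriers. Ligands of the TGF-β superfamily, such as Bmp10 and myostatin, control growth of heart and skeletal muscle. In bulk hearts, fewer cells of a type and less RNA per cell cannot be told apart.

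The level of *il11a* was between 31.6 and 78.3 CPM in the 7 control libraries and between 350.5 and 481.1 CPM in the 7 *il11a*OE libraries. The summed level of 15 cardiomyocyte marker genes was high in every library, between 96266 and 103113 CPM in controls against 70377 to 79723 CPM in *il11a*OE hearts at 7 dpt, and between 86084 and 103342 against 44720 to 60628 CPM at 7 mpt. That sum follows its most abundant genes, such as *MYH7*, with 40402 to 42524 CPM in controls and 24948 to 30244 CPM in *il11a*OE at 7 dpt. The genes of the list did not all move this way. At 7 dpt *nppa* had 2389 to 2994 CPM in controls and 6602 to 6850 CPM in *il11a*OE, and *nppb* had 202 to 365 against 985 to 1144 CPM. Marker sums of macrophages (16 genes) were higher in *il11a*OE, 817 to 1098 against 273 to 335 CPM at 7 dpt and 1143 to 1696 against 99.5 to 251 CPM at 7 mpt, with 1 gene at 0 in the controls of each time point. Sums of epicardial cells and fibroblasts (10 genes) were also higher, 850 to 1219 against 419 to 548 CPM at 7 dpt and 3207 to 7570 against 569 to 1149 CPM at 7 mpt. Those of liver (17 genes) were lower at 7 dpt, 337 to 441 against 604 to 709 CPM, and higher at 7 mpt, 1642 to 3878 against 300 to 625 CPM. Endothelial sums (10 genes) were slightly higher in *il11a*OE at 7 dpt, 1843 to 1982 against 1718 to 1814 CPM, and overlapped at 7 mpt, 798 to 835 against 748 to 1076 CPM. The part of such shifts in the results below was not tested. Over the 12245 genes with the required control level, the median ratio of *il11a*OE to control was 1.25 at 7 dpt and 1.36 at 7 mpt (log2 shifts of 0.32 and 0.44) when library totals were used. With TMM-scaled totals these log2 shifts were -0.02 and -0.08. Ratios below 1 are thus further below the typical gene than below 1.

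A pair of control libraries stood apart from the others for many of the 58 genes. At 7 dpt control library 2 had the highest control value of 45 of the 58 genes, and at 7 mpt control library 4 had that of 31. The rule can favour genes whose control mean is raised in a single library. How often these libraries were highest over all 12245 genes was not counted, so the counts only describe the set. For 19 genes these libraries held over 75% of the summed control CPM at both time points, for 3 more (*tpma*, *cyld2* and *prdm1b*) control library 2 did so at 7 dpt alone, and for the other 36 neither did at either time. The 36 are called spread below only because neither library passed 75%, and they are described first. In all 36 the lowest control library was above the highest *il11a*OE library at 7 dpt, and in 33 this held at 7 mpt as well. Over all 58 genes, 44 had groups that did not overlap in this way at 7 dpt, where 12.8% of the 12245 genes did, and 38 at 7 mpt, where 7.32% did. The rule used the same contrast, so nothing is read from these shares.

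**Figure D1:**
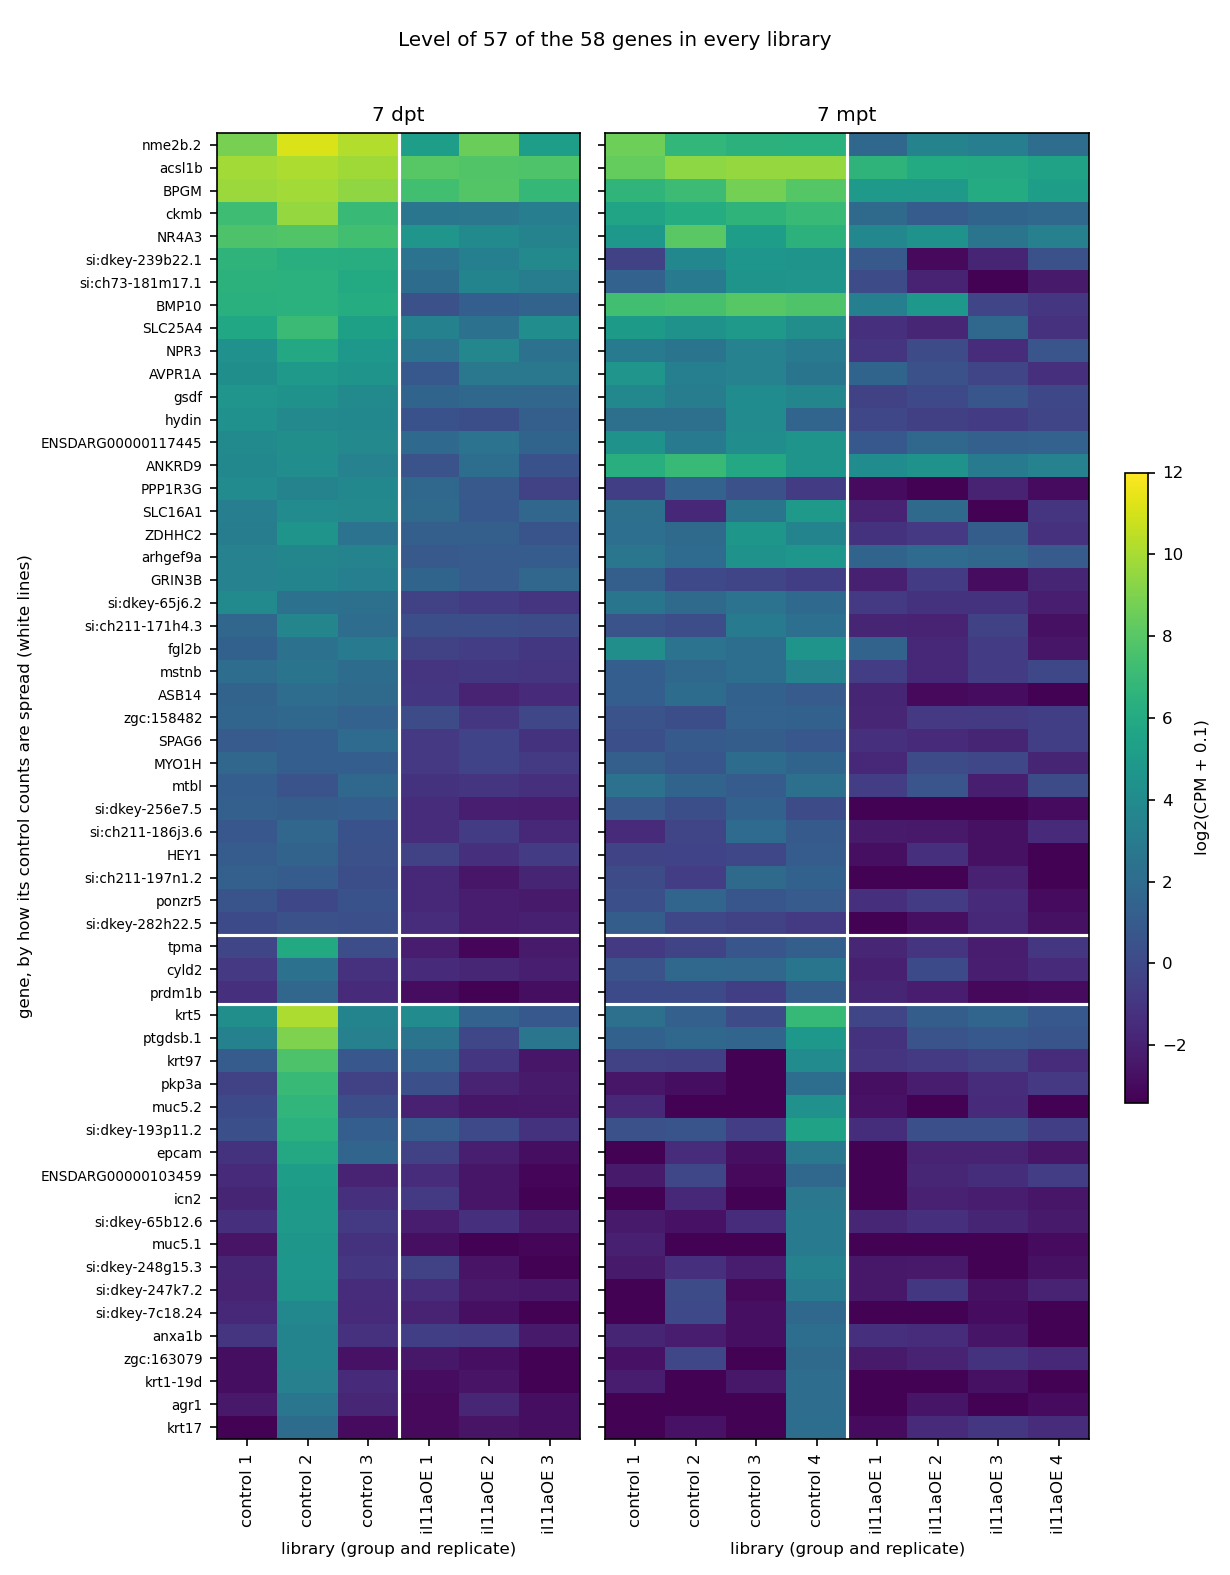
Levels of 57 of the 58 genes (rows) in each of 14 libraries (columns) as log2(CPM + 0.1), with 7 dpt on the left and 7 mpt on the right. White lines separate 35 genes whose control counts were spread over libraries, the 3 with over 75% in control library 2 at 7 dpt alone, and the 19 with over 75% in control library 2 at 7 dpt and in control library 4 at 7 mpt, which form the bright columns at the bottom.

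Of the 12245 genes, 120 (0.980%) had a ratio of at most 0.25 at 7 dpt and 151 (1.23%) at 7 mpt. The 58 genes were 48.3% of the first and 38.4% of the second. Their ratios ran from 0.00228 to 0.2496 at 7 dpt (median 0.0971) and from 0.00363 to 0.235 at 7 mpt (median 0.0886). Among the 36 genes spread over the control libraries the median ratio was 0.157 at 7 dpt and 0.0936 at 7 mpt, and 25 of the 36 had the lower ratio at 7 mpt. Among the 19 genes with most counts in 1 control library the order was the other way, with medians of 0.0168 and 0.0672. The rule used these ratios, and the classes were drawn from the same control values, so nothing is read from either order.

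**Figure D2:**
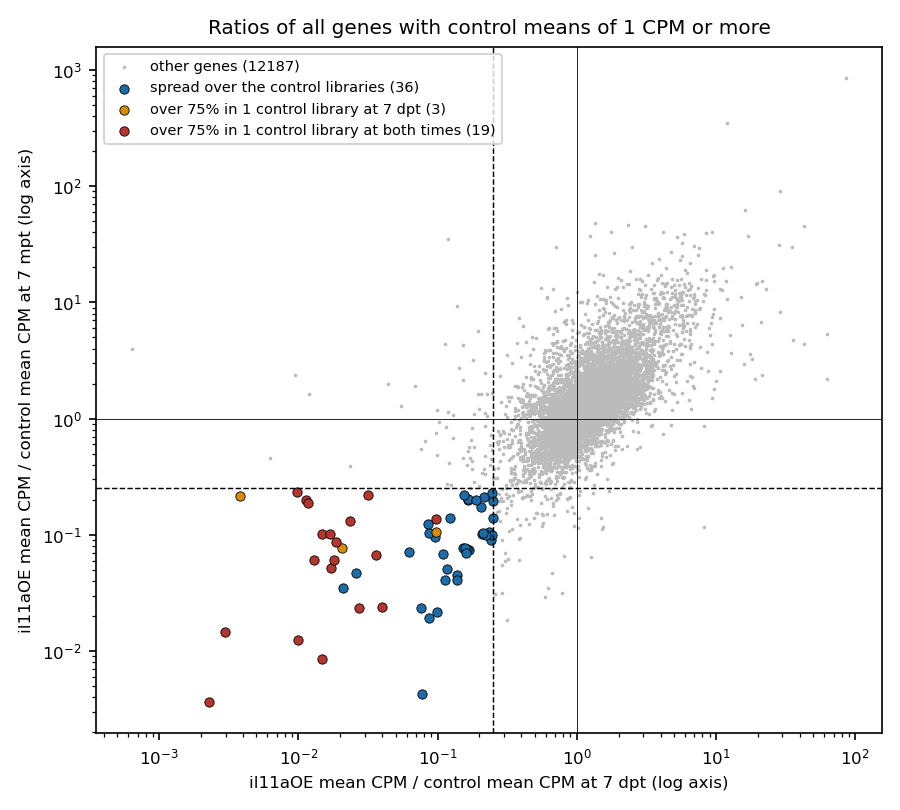
Ratio of mean *il11a*OE CPM to mean control CPM at 7 dpt (x axis) and 7 mpt (y axis), both log axes, for all 12245 genes with control means of 1 CPM or more. Dashed lines mark 0.25 and solid lines 1. Coloured points in the lower left are the 58 genes, with the 19 genes of the 1-library class reaching down to 0.00228 at 7 dpt.

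Of the genes described here, 7 were grouped under energy supply, and all 7 were of the spread class. For 2 of them this held by little. *ckmb* had 72.8% of its control CPM in control library 2 at 7 dpt, and *SLC16A1* had 74.3% in control library 4 at 7 mpt, just under the cut of 75%. *ckmb* (ENSDARG00000040565, chr15:23643718-23647078), a muscle creatine kinase that moves phosphate between creatine and ATP, had the lowest 7 dpt ratio of the 36. It had 149, 750.2 and 131 CPM in the control libraries and 6.25, 6.47 and 8.83 CPM in the *il11a*OE libraries at 7 dpt. At 7 mpt *ckmb* had 47.5, 69.98, 96.2 and 133 CPM in the control libraries and 3.69, 1.99, 2.91 and 3.44 CPM in the *il11a*OE libraries. The groups did not overlap at either time, and control library 2 was far above the other controls at 7 dpt. The same library stood out for *pvalb2*, a parvalbumin of fast skeletal muscle, with 0.162, 824 and 6.66 CPM in the 3 controls. The ratio of *ckmb* was 0.0209 with that library and 0.0513 without it, and 0.0347 at 7 mpt. A second muscle creatine kinase gene, *ckma*, moved the other way at 7 dpt and not at 7 mpt. It had 3089.7, 3918 and 2857 CPM in the controls and 5693, 6346 and 5945 CPM in *il11a*OE at 7 dpt. There it rose by 0.54 on the log2 scale (edgeR quasi-likelihood test, adjusted p = 0.0188). At 7 mpt its ratio was 0.919, and edgeR called it lower by -0.62 on the log2 scale (quasi-likelihood test, adjusted p = 0.0473).

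*nme2b.2* (ENSDARG00000099420, chr19:48111285-48114444), a nucleoside diphosphate kinase that passes phosphate between nucleotides, had the highest control level per kilobase of exon of the 58 genes, 1606 CPM per kb at 7 dpt and 209.5 at 7 mpt. It had 466, 2260.0 and 1182 CPM in the control libraries and 36.999, 369 and 37.3 CPM in the *il11a*OE libraries at 7 dpt, where *il11a*OE library 2 was far above the other libraries of its group. At 7 mpt the values were 389.8, 112, 90.02 and 88.1 CPM in the control libraries and 3.44, 11.2, 8.92 and 4.26 CPM in the *il11a*OE libraries, with control library 1 far above the other controls. The groups were separate at both times, but within each the spread was wide (1303 ± 903 against 148 ± 191 CPM (SD, n = 3) at 7 dpt), and edgeR did not call the gene at 7 dpt. Its 7 dpt ratio was 0.113 with and 0.179 without control library 2. The relative *NME1*, which lies between *nme2b.2* and *prdm1b*, had ratios of 2.06 and 1.87. Reads that fit several nucleoside diphosphate kinase genes were left out by the counting, so levels of such close relatives are uncertain.

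*acsl1b* (ENSDARG00000003854, chr14:937194-970853), which links long-chain fatty acids to coenzyme A before they are burned, had 951, 1123 and 887 CPM in the control libraries and 259.9, 222 and 213 CPM in the *il11a*OE libraries at 7 dpt. At 7 mpt *acsl1b* had 334, 681, 758 and 767 CPM in the control libraries and 97.1, 65.6, 58.9 and 44.4 CPM in the *il11a*OE libraries. The means were 987 ± 122 against 232 ± 24.8 CPM (SD, n = 3) and 635 ± 205 against 66.5 ± 22.2 CPM (SD, n = 4), with ratios of 0.235 at 7 dpt and 0.105 at 7 mpt and no overlap. *BPGM* (ENSDARG00000070826, chr25:20116407-20127087), bisphosphoglycerate mutase, which in mammals makes 2,3-bisphosphoglycerate in red blood cells, had 836, 951 and 707 CPM in the control libraries and 161, 239 and 115 CPM in the *il11a*OE libraries at 7 dpt. At 7 mpt it had 103, 145, 446 and 249 CPM in the control libraries and 30.4, 28.7, 68.6 and 35.9 CPM in the *il11a*OE libraries, and no control library was as low as an *il11a*OE library at either time. The summed level of 6 erythroid marker genes was 1618 to 3906 CPM in controls and 1094 to 1625 CPM in *il11a*OE at 7 dpt, and 854 to 3211 against 1289 to 7109 CPM at 7 mpt, and its part in the *BPGM* result was not tested.

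The carrier *SLC25A4* (ENSDARG00000027355, chr1:17676745-17679089) exchanges ADP and ATP across the inner mitochondrial membrane. It had 57.3, 138 and 41.5 CPM in the control libraries and 10.4, 5.12 and 17.3 CPM in the *il11a*OE libraries at 7 dpt. At 7 mpt *SLC25A4* had 32.2, 23.1, 29.6 and 18.04 CPM in the control libraries and 0.308, 0.199, 3.35 and 0.328 CPM in the *il11a*OE libraries. Its ratio was 0.139 at 7 dpt and 0.0407 at 7 mpt, and 0.222 at 7 dpt without control library 2. Among the 4 *il11a*OE libraries of 7 mpt, *il11a*OE library 3 alone held most of the counts. The related carrier gene *SLC25A5*, which is not in the set, was at a far higher level. It had 17399, 19368 and 18567.5 CPM in the controls and 9315, 8155 and 8682 CPM in *il11a*OE at 7 dpt. The ratios of *SLC25A5* were 0.473 at 7 dpt and 0.3995 at 7 mpt. *SLC16A1* (ENSDARG00000016963, chr6:48978202-49049019), a lactate and pyruvate transporter, had 9.09, 16.6 and 14.1 CPM in the control libraries and 3.72, 1.69 and 3.07 CPM in the *il11a*OE libraries at 7 dpt with separate groups. At 7 mpt it had 4.79, 0.209, 5.61 and 30.7 CPM in the control libraries and 0.169, 3.69, 0 and 0.382 CPM in the *il11a*OE libraries, which overlapped, and without control library 4 the ratio went from 0.103 to 0.2997.

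*PPP1R3G* encodes a subunit that brings protein phosphatase 1 to glycogen. It had 16.4, 10.96 and 13.5 CPM in the control libraries and 3.18, 1.75 and 0.672 CPM in the *il11a*OE libraries at 7 dpt. At 7 mpt *PPP1R3G* had 0.591, 2.65, 1.24 and 0.519 CPM in the control libraries and 0.0308, 0, 0.168 and 0.0273 CPM in the *il11a*OE libraries, where its control level was near the floor of 1 CPM. Over these 7 genes of energy supply the median ratio was 0.139 at 7 dpt and 0.0451 at 7 mpt. The groups were separate for 7 and 6 of them, where 12.8% and 7.32% of the 12245 genes were separate. The rule chose the genes by these ratios, so nothing is read from such values, here or for the smaller gene families below.

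**Figure D3:**
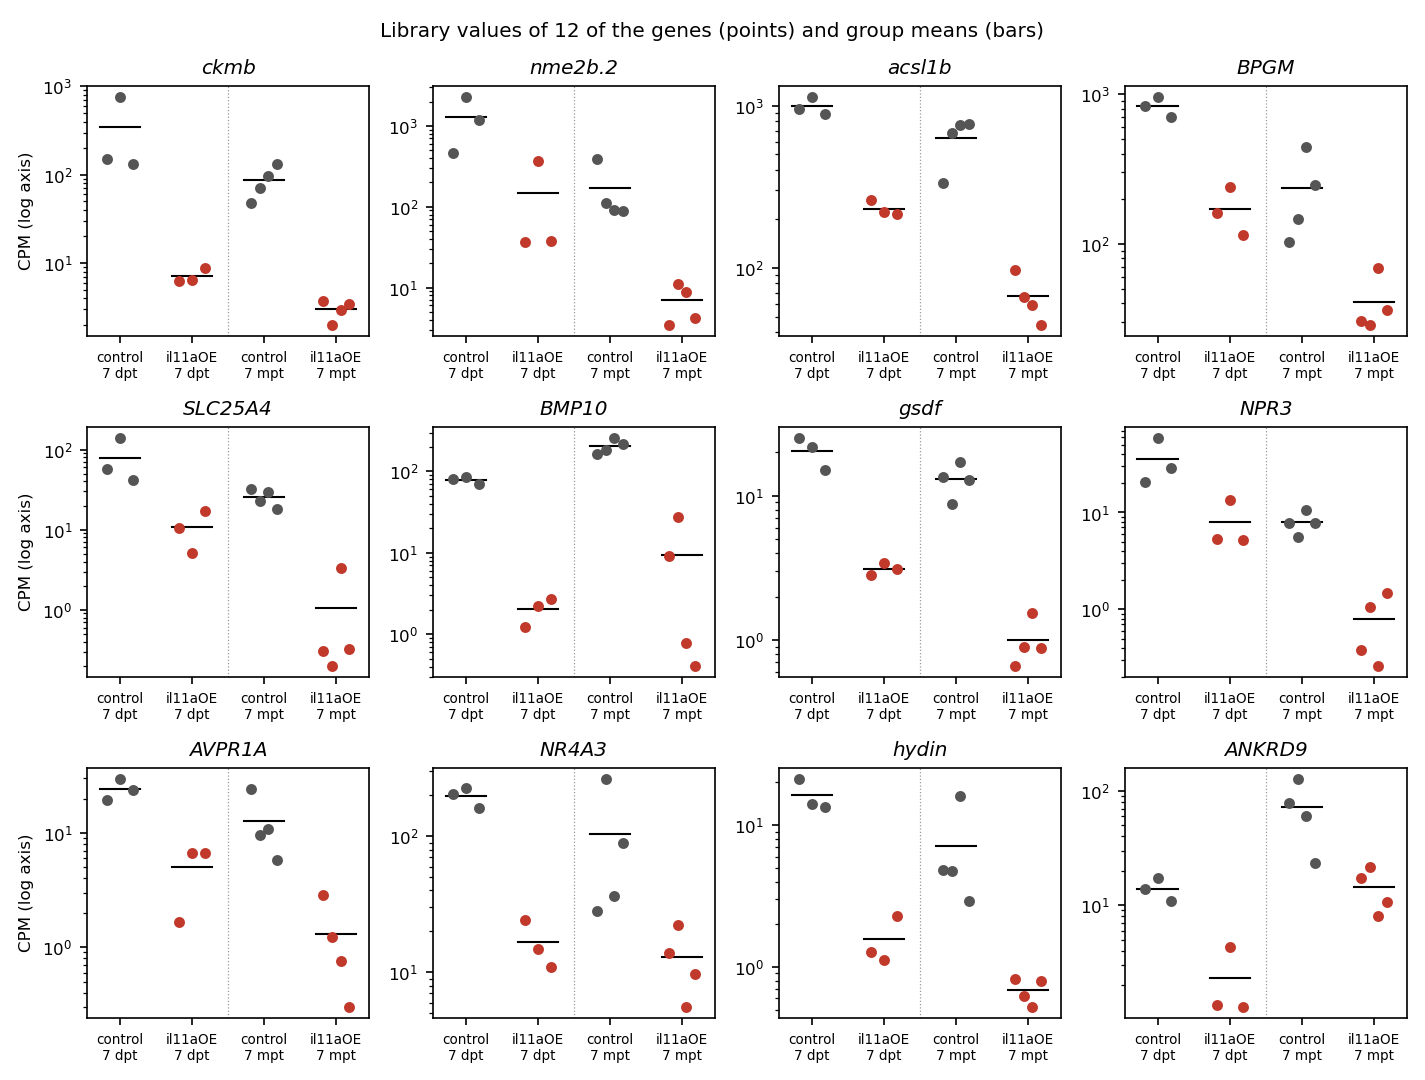
CPM of each library (points, log axes) and group means (bars) for 12 of the 36 genes spread over the control libraries, with controls in grey and *il11a*OE in red. In all 12 genes the points of a time point's groups do not overlap, while libraries of a group can lie far apart, such as *il11a*OE library 2 of *nme2b.2* at 7 dpt and the *il11a*OE libraries of *BMP10* at 7 mpt.

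TGF-β superfamily ligands gave 3 genes, and for all 3 the groups were separate at both times. *BMP10* (ENSDARG00000109233, chr10:563252-566607), a ligand of the heart that is needed for growth of the ventricle in mouse embryos, had 81.6, 85.3 and 70.2 CPM in the control libraries and 1.21, 2.24 and 2.69 CPM in the *il11a*OE libraries at 7 dpt. At 7 mpt it had 161, 183, 254 and 214 CPM in the control libraries and 9.26, 27.5, 0.782 and 0.409 CPM in the *il11a*OE libraries. The controls of each time point were close together, 79.1 ± 7.89 against 2.05 ± 0.754 CPM (SD, n = 3) at 7 dpt, and the 4 *il11a*OE libraries of 7 mpt were not. *gsdf* (ENSDARG00000075301, chr21:198269-202014), a fish ligand first known from gonadal somatic cells, had 24.9, 21.6 and 15.05 CPM in the control libraries and 2.84, 3.42 and 3.099 CPM in the *il11a*OE libraries at 7 dpt. At 7 mpt *gsdf* had 13.5, 8.72, 17.1 and 12.8 CPM in the control libraries and 0.661, 0.897, 1.55 and 0.873 CPM in the *il11a*OE libraries. *mstnb*, a zebrafish copy of myostatin, an inhibitor of muscle growth, had 4.11, 5.58 and 4.02 CPM in the control libraries and 0.372, 0.438 and 0.375 CPM in the *il11a*OE libraries at 7 dpt. At 7 mpt *mstnb* had 2.18, 3.45, 4.42 and 11.2 CPM in the control libraries and 0.569, 0.224, 0.5402 and 0.846 CPM in the *il11a*OE libraries, and without control library 4 the ratio went from 0.103 to 0.163. Exons of *mstnb* overlap a gene on the opposite strand. Counting ignored strand and dropped reads that fell on both genes, so the level of *mstnb* rests on exon sequence that is not shared.

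Receptors gave 3 genes. *NPR3* (ENSDARG00000035253, chr5:41260478-41307550), which clears natriuretic peptides, had 20.6, 58.2 and 28.5 CPM in the control libraries and 5.34, 13.4 and 5.24 CPM in the *il11a*OE libraries at 7 dpt. At 7 mpt *NPR3* had 7.81, 5.61, 10.6 and 7.86 CPM in the control libraries and 0.384, 1.05, 0.261 and 1.47 CPM in the *il11a*OE libraries. Without control library 2 its 7 dpt ratio was 0.326 in place of 0.224, above the limit of 0.25. *AVPR1A* (ENSDARG00000045788, chr4:9207722-9214288), a vasopressin receptor, had 19.5, 29.4 and 23.7 CPM in the control libraries and 1.67, 6.74 and 6.69 CPM in the *il11a*OE libraries at 7 dpt. At 7 mpt *AVPR1A* had 24.3, 9.56, 10.9 and 5.803 CPM in the control libraries and 2.89, 1.22, 0.764 and 0.3002 CPM in the *il11a*OE libraries. *GRIN3B*, a subunit of NMDA-type glutamate receptors, had 10.8, 11.5 and 9.29 CPM in the control libraries and 2.8995, 1.91 and 3.06 CPM in the *il11a*OE libraries at 7 dpt. At 7 mpt *GRIN3B* had 2.32, 0.891, 0.778 and 0.587 CPM in the control libraries and 0.138, 0.523, 0.0373 and 0.191 CPM in the *il11a*OE libraries. For all 3 receptors the lowest control library was above the highest *il11a*OE library at each time.

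*NR4A3* (ENSDARG00000055854, chr16:27345383-27369782), an orphan nuclear receptor that is switched on quickly by many stimuli, had 204, 227 and 162 CPM in the control libraries and 24.2, 14.96 and 11.04 CPM in the *il11a*OE libraries at 7 dpt. At 7 mpt it had 28.3, 262, 36.6 and 89.4 CPM in the control libraries and 13.9, 22.3, 5.57 and 9.799 CPM in the *il11a*OE libraries, and the controls differed among themselves by more than the closest libraries of the groups did. Its exons overlap a gene on the opposite strand. The Notch target *HEY1*, a transcriptional repressor, had 2.002, 2.701 and 1.23 CPM in the control libraries and 0.644, 0.308 and 0.504 CPM in the *il11a*OE libraries at 7 dpt. At 7 mpt *HEY1* had 0.754, 0.7205, 0.824 and 1.99 CPM in the control libraries and 0.0461, 0.324, 0.0559 and 0 CPM in the *il11a*OE libraries, low in both groups and without overlap.

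A pair of genes of the motile cilium were in the set, and both had separate groups at each time. *hydin* (ENSDARG00000056764, chr18:21273749-21401401), a protein of the central pair of microtubules, had 21.02, 14.1 and 13.5 CPM in the control libraries and 1.28, 1.12 and 2.299 CPM in the *il11a*OE libraries at 7 dpt. At 7 mpt *hydin* had 4.79, 4.72, 16.05 and 2.94 CPM in the control libraries and 0.815, 0.623, 0.522 and 0.792 CPM in the *il11a*OE libraries. *SPAG6*, of the same central apparatus, had 1.96, 2.196 and 3.83 CPM in the control libraries and 0.446, 0.697 and 0.362 CPM in the *il11a*OE libraries at 7 dpt. At 7 mpt *SPAG6* had 1.18, 1.86, 2.08 and 1.603 CPM in the control libraries and 0.323, 0.249, 0.186 and 0.573 CPM in the *il11a*OE libraries. Ankyrin-repeat proteins gave 2 genes. *ANKRD9* (ENSDARG00000028804, chr17:29276544-29277731) had 13.8, 17.3 and 10.8 CPM in the control libraries and 1.34, 4.33 and 1.29 CPM in the *il11a*OE libraries at 7 dpt. At 7 mpt *ANKRD9* had 77.999, 126, 60.1 and 23.6 CPM in the control libraries and 17.1, 21.7, 8.08 and 10.7 CPM in the *il11a*OE libraries. *ASB14*, whose family joins an ankyrin domain to a SOCS box, had 2.79, 4.22 and 3.74 CPM in the control libraries and 0.409, 0.162 and 0.245 CPM in the *il11a*OE libraries at 7 dpt. At 7 mpt *ASB14* had 2.16, 3.98, 2.47 and 1.92 CPM in the control libraries and 0.185, 0.0249, 0.0373 and 0 CPM in the *il11a*OE libraries, so that its ratio was 0.07601 at 7 dpt and 0.0234 at 7 mpt.

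Other genes with known products were few. *ZDHHC2* (ENSDARG00000034757, chr14:30426956-30452218), an enzyme that attaches palmitate to proteins, had 8.74, 23.5 and 5.48 CPM in the control libraries and 2.28, 2.33 and 1.42 CPM in the *il11a*OE libraries at 7 dpt. At 7 mpt *ZDHHC2* had 4.67, 3.697, 26.5 and 11.6 CPM in the control libraries and 0.354, 0.449, 2.105 and 0.328 CPM in the *il11a*OE libraries. Its 7 dpt ratio was 0.1602 with and 0.283 without control library 2. *fgl2b* (ENSDARG00000019686, chr25:21267579-21273875), a fibrinogen-like protein, had 2.46, 5.07 and 7.396 CPM in the control libraries and 0.632, 0.567 and 0.439 CPM in the *il11a*OE libraries at 7 dpt. At 7 mpt *fgl2b* had 18.4, 5.403, 4.46 and 23.9 CPM in the control libraries and 2.75, 0.224, 0.503 and 0.0819 CPM in the *il11a*OE libraries. *arhgef9a* (ENSDARG00000061746, chr5:21939733-22001053), an exchange factor that activates the small GTPase Cdc42, had 10.8, 12.5 and 11.2 CPM in the control libraries and 1.75, 1.93 and 2.05 CPM in the *il11a*OE libraries at 7 dpt. At 7 mpt it had 6.198, 3.92, 22.3 and 25.6 CPM in the control libraries and 2.83, 3.89, 3.15 and 1.94 CPM in the *il11a*OE libraries, and control library 2 was barely above *il11a*OE library 2. *MYO1H*, an unconventional myosin, *ponzr5* and *mtbl* had control means between 1.18 and 3.64 CPM, and their ratios were 0.216 at 7 dpt and 0.211 at 7 mpt, 0.124 at 7 dpt and 0.1404 at 7 mpt, and 0.155 at 7 dpt and 0.221 at 7 mpt.

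The rest of the 36 carry clone names or only an identifier. The highest at 7 dpt were *si:dkey-239b22.1* (ENSDARG00000031588, chr12:38929663-38974869) and *si:ch73-181m17.1* (ENSDARG00000097080, chr12:38983989-39031459), which are neighbours with 9119 bases and no other gene of the table between them. They had 97.2, 80.6 and 73.04 CPM and 91.5, 88.1 and 65.8 CPM in the 7 dpt controls, and 5.502, 9.402 and 14.4 CPM and 4.08, 11.7 and 8.41 CPM in *il11a*OE. At 7 mpt *si:dkey-239b22.1* had 0.652, 13.9, 25.8 and 23.8 CPM in the control libraries and 1.799, 0.0249, 0.186 and 1.26 CPM in the *il11a*OE libraries, which overlapped through control library 1, and *si:ch73-181m17.1* had 2.65, 7.74, 23.6 and 24.4 CPM in the control libraries and 0.984, 0.174, 0 and 0.109 CPM in the *il11a*OE libraries, which did not. Control library 1 was the lowest 7 mpt control for both.

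ENSDARG00000117445, which has no symbol, lay at chr1:54159959-54173322 and had 15.2, 18.3 and 14.1 CPM in the control libraries and 3.53, 5.48 and 2.85 CPM in the *il11a*OE libraries at 7 dpt. At 7 mpt ENSDARG00000117445 had 23.1, 7.26, 17.9 and 23.6 CPM in the control libraries and 1.71, 3.21, 2.44 and 2.62 CPM in the *il11a*OE libraries. *si:dkey-65j6.2* (ENSDARG00000103586, chr23:43177290-43252396), whose exons overlap a gene on the opposite strand, had 14.8, 4.98 and 4.73 CPM in the control libraries and 0.657, 0.503 and 0.375 CPM in the *il11a*OE libraries at 7 dpt. At 7 mpt *si:dkey-65j6.2* had 5.83, 3.66, 5.33 and 3.52 CPM in the control libraries and 0.477, 0.349, 0.354 and 0.136 CPM in the *il11a*OE libraries. The groups of both genes were separate at each time.

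On chromosome 1, 3 of the genes followed each other with no other gene of the table between them, *si:ch211-197n1.2* (from 17618015), *si:dkey-256e7.5* and *SLC25A4* (to 17679089), 2164 and 1707 bases apart. *si:dkey-256e7.5* had 2.42, 2.101 and 2.18 CPM in the control libraries and 0.273, 0.1297 and 0.116 CPM in the *il11a*OE libraries at 7 dpt. At 7 mpt *si:dkey-256e7.5* had 1.75, 1.12, 2.495 and 1.02 CPM in the control libraries and 0, 0, 0 and 0.0273 CPM in the *il11a*OE libraries. *si:ch211-197n1.2* had 2.38, 2.05 and 1.16 CPM in the control libraries and 0.223, 0.08105 and 0.181 CPM in the *il11a*OE libraries at 7 dpt. At 7 mpt *si:ch211-197n1.2* had 1.04, 0.5498, 3.66 and 2.46 CPM in the control libraries and 0, 0, 0.149 and 0 CPM in the *il11a*OE libraries. The ratios of the 3 genes were 0.0867, 0.0774 and 0.139 at 7 dpt and 0.0193, 0.00428 and 0.0407 at 7 mpt, on counts that ignored strand. The remaining clone-named genes were *si:ch211-171h4.3*, *si:ch211-186j3.6*, *si:dkey-282h22.5* and *zgc:158482*, with ratios of 0.168 at 7 dpt and 0.0738 at 7 mpt, 0.163 at 7 dpt and 0.0755 at 7 mpt, 0.158 at 7 dpt and 0.0767 at 7 mpt, and 0.248 at 7 dpt and 0.229 at 7 mpt. Without control library 2 the 7 dpt ratio of *si:ch211-171h4.3* was 0.298, above the limit. In all, the 58 genes lay on 23 chromosomes and, for 1 of them, an unplaced scaffold, and at most 6 were on any chromosome.

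The 19 genes with over 75% of control counts in 1 library at both times had another makeup. They included the keratins *krt5*, *krt97*, *krt17* and *krt1-19d*, the epithelial adhesion molecule *epcam*, the desmosome protein *pkp3a*, the gel-forming mucins *muc5.1* and *muc5.2*, and *agr1*, *icn2*, *anxa1b* and *ptgdsb.1*, a prostaglandin D synthase. The other 7 were *si:dkey-193p11.2*, *si:dkey-247k7.2*, *si:dkey-248g15.3*, *si:dkey-65b12.6*, *si:dkey-7c18.24*, *zgc:163079* and ENSDARG00000103459. Control library 2 held between 94.3% and 99.3% of the summed control CPM of each at 7 dpt, and control library 4 between 75.7% and 100% at 7 mpt. Of the 19, 5 had separate groups at 7 dpt, where 12.8% of the 12245 genes did, and 2 at 7 mpt, where 7.32% did. The rule used this contrast, so nothing is read from these counts.

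*krt5* (ENSDARG00000058371, chr23:10173196-10177458), a keratin of surface epithelia, had 18.5, 1122 and 11.5 CPM in the control libraries and 16.4, 2.66 and 1.68 CPM in the *il11a*OE libraries at 7 dpt. At 7 mpt *krt5* had 4.73, 2.45, 1.03 and 118 CPM in the control libraries and 0.769, 2.14, 3.04 and 1.72 CPM in the *il11a*OE libraries. Apart from control library 2 at 7 dpt and control library 4 at 7 mpt, the range of the controls overlapped that of the *il11a*OE libraries. Its ratio was 0.01796 at 7 dpt and 0.0605 at 7 mpt, and 0.4601 and 0.701 without these libraries. *ptgdsb.1* (ENSDARG00000027088, chr24:17027310-17029374) had 10.3, 525 and 9.95 CPM in the control libraries and 5.6999, 0.827 and 6.19 CPM in the *il11a*OE libraries at 7 dpt. At 7 mpt *ptgdsb.1* had 2.53, 3.34, 2.98 and 27.5 CPM in the control libraries and 0.354, 1.35, 1.71 and 1.39 CPM in the *il11a*OE libraries. Its remaining controls were still above every *il11a*OE library at both times, and its ratios without the libraries were 0.418 and 0.408.

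*muc5.2* (ENSDARG00000058556, chr25:8407892-8445400), a gel-forming mucin of mucous epithelia, had 0.947, 106 and 1.13 CPM in the control libraries and 0.149, 0.08105 and 0.0904 CPM in the *il11a*OE libraries at 7 dpt. At 7 mpt *muc5.2* had 0.224, 0, 0 and 20.8 CPM in the control libraries and 0.0615, 0, 0.242 and 0 CPM in the *il11a*OE libraries, and *muc5.1*, its neighbour at 7725 bases, had 0.0676, 26.9 and 0.345 CPM in the control libraries and 0.0496, 0 and 0.0129 CPM in the *il11a*OE libraries at 7 dpt. *si:dkey-193p11.2* (ENSDARG00000096712, chr12:25885910-25887864) had 1.18, 87.7 and 2.19 CPM in the control libraries and 2.02, 0.908 and 0.349 CPM in the *il11a*OE libraries at 7 dpt. At 7 mpt *si:dkey-193p11.2* had 1.22, 1.44, 0.549 and 45.1 CPM in the control libraries and 0.277, 1.196, 1.17 and 0.6005 CPM in the *il11a*OE libraries. In each of them 1 control library stood far above all other libraries of its time point. Over the 19 genes the median ratio without the libraries was 0.577 at 7 dpt, in place of 0.0168, and 0.780 at 7 mpt, in place of 0.0672 (18 genes, since *agr1* was at 0 in the other 3 controls). For many of the 19 few counts were left elsewhere, so overlap of the groups in the remaining libraries cannot be read as equal levels.

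Of the 10 genes of a gut, gill and skin marker list that are not in the set, 9 were above 0 in the controls of each time point. Of these, 6 had their highest control value in control library 2 at 7 dpt and 3 had it in control library 4 at 7 mpt. The 6 include *cyt1l*, with 0.0158 CPM there and 0 in the other controls. The 3 include *cyt1*, with 0.271 CPM there against 0.265 CPM in control library 1. The keratin gene *krt91* and *AGR2* were in both counts, and *krt4*, *icn* and *VIL1* were highest in control library 1 at 7 mpt. *krt91* had 259, 1328 and 192 CPM in the controls of 7 dpt and 91.1, 73.2, 113 and 190.2 CPM in those of 7 mpt, and *AGR2*, a protein disulfide isomerase of mucous cells, had 0.663, 21.7 and 1.47 CPM and 0.917, 1.02, 0.412 and 4.36 CPM. The summed level of the 10 genes was 523 to 2031 CPM in controls and 385 to 539 CPM in *il11a*OE at 7 dpt, and 274 to 485 against 482 to 763 CPM at 7 mpt. The intestinal markers *FABP2* and *FABP6* were at most 0.0819 CPM in any library, and 1 of the 10 genes was at 0 in the controls of each time point. The ictacalcin gene *icn*, close to *icn2*, had ratios of 0.993 and 1.86. Whether tissue beside the heart was in these control libraries was not tested.

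The 3 genes with most control counts in control library 2 at 7 dpt alone were *tpma*, a tropomyosin of skeletal muscle, *cyld2*, and the transcription factor *prdm1b*. *tpma* had 0.771, 61.7 and 1.095 CPM in the control libraries and 0.124, 0.0162 and 0.103 CPM in the *il11a*OE libraries at 7 dpt. At 7 mpt *tpma* had 0.489, 0.758, 1.58 and 2.35 CPM in the control libraries and 0.1999, 0.399, 0.112 and 0.409 CPM in the *il11a*OE libraries. *cyld2* had 0.45996, 5.06 and 0.33004 CPM in the control libraries and 0.248, 0.195 and 0.129 CPM in the *il11a*OE libraries at 7 dpt. At 7 mpt *cyld2* had 1.33, 3.34, 3.14 and 5.85 CPM in the control libraries and 0.138, 0.922, 0.1304 and 0.246 CPM in the *il11a*OE libraries. *prdm1b* had 0.311, 3.11 and 0.24003 CPM in the control libraries and 0.0372, 0 and 0.0387 CPM in the *il11a*OE libraries at 7 dpt. At 7 mpt *prdm1b* had 0.958, 0.948, 0.595 and 2.15 CPM in the control libraries and 0.185, 0.125, 0.0186 and 0.0273 CPM in the *il11a*OE libraries. In these 3 the groups were separate at both times with every library included. Their ratios at 7 dpt without control library 2 were 0.08696, 0.482 and 0.0918. The summed level of 18 skeletal muscle markers other than *ckmb* was 2890 to 7636 CPM in the 7 dpt controls, highest in control library 2, and 5700 to 6352 CPM in *il11a*OE. Outside control library 2 nearly all of that sum was *ckma*, which had 3089.7, 3918 and 2857 CPM in the controls. In control library 2 other genes of the list added much of the sum. The parvalbumin genes *pvalb1* and *pvalb2* had 0.528, 742 and 5.63 CPM and 0.162, 824 and 6.66 CPM in the controls. *atp2a1l* had 0.0812, 389 and 1.83 CPM. The fast myosin gene *myhz2* was at 0 in the other 2 controls and at 6.603 CPM in control library 2.

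Without control library 2 of 7 dpt and control library 4 of 7 mpt together, 30 genes met the rule. Of these, 25 belonged to the 58 and 5 did not (*igfbp1b*, *NRN1*, *NGB*, *ECEL1* and ENSDARG00000109996). The 25 were *nme2b.2*, *BPGM*, *ckmb*, *SLC25A4*, *PPP1R3G*, *BMP10*, *gsdf*, *mstnb*, *AVPR1A*, *NR4A3*, *hydin*, *SPAG6*, *ANKRD9*, *ASB14*, *fgl2b*, *MYO1H*, *ponzr5*, *mtbl*, *si:dkey-239b22.1*, *si:ch73-181m17.1*, *si:dkey-65j6.2*, *si:dkey-256e7.5*, *si:ch211-197n1.2*, *si:ch211-186j3.6* and *si:dkey-282h22.5*, and 23 of them had separate groups at both times. The other 33 included every gene of the 1-library classes (19 and 3) and 11 of the 36 spread genes. Of the 11, *acsl1b* moved by little across the limit, to 0.252 at 7 dpt. A gene could leave through the ratio or through the control floor of 1 CPM. Without these libraries *muc5.1* had ratios of 0.101 at 7 dpt and 0.143 at 7 mpt, *krt1-19d* 0.230 and 0.196, and *prdm1b* 0.0918 and 0.106. These genes left through the floor alone.

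**Figure D4:**
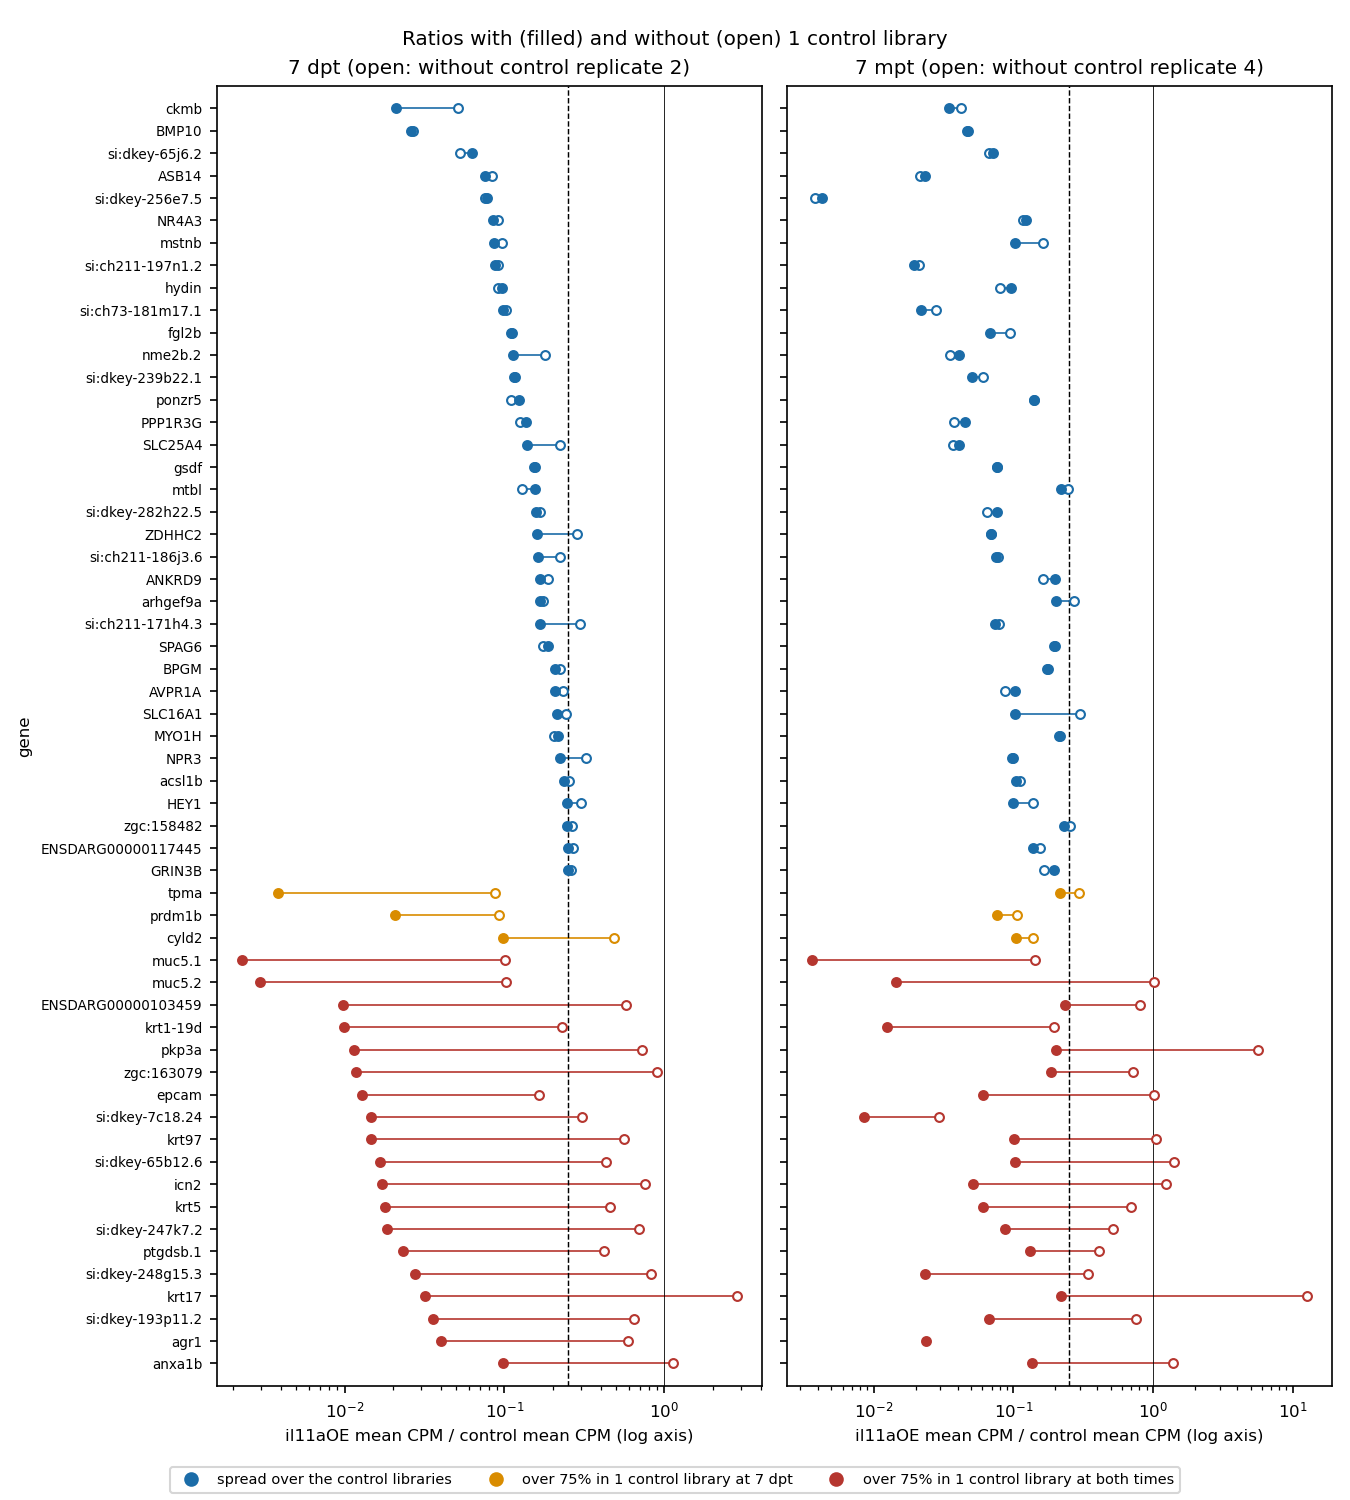
Ratio of mean *il11a*OE CPM to mean control CPM (log axes) of 57 of the 58 genes with every library (filled) and without control library 2 at 7 dpt or control library 4 at 7 mpt (open), with the limit of 0.25 dashed and 1 solid. Blue points are 35 of the spread genes. Red points (19 genes) move to the right, past 1 for some, and *agr1* has no open point at 7 mpt because the remaining controls were at 0.

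Just inside the limit of 0.25 were *GRIN3B*, ENSDARG00000117445 and *zgc:158482*, whose larger ratios were 0.2496, 0.249 and 0.248. Just outside were ENSDARG00000109996, *cdkn1ca* and *adgrg2b*, with 0.2504, 0.259 and 0.265. Of these, *cdkn1ca*, a cyclin-dependent kinase inhibitor, had a ratio of 0.0307 at 7 mpt and missed the rule through 7 dpt alone.

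For 4 of the genes described above the reference names give the same symbol to another gene, in zebrafish usually a copy from the genome duplication of teleost fishes, and none of the 4 copies was in the set. The second *BMP10* gene (ENSDARG00000061769) had 65.5 ± 7.96 CPM in controls against 41.8 ± 8.82 in *il11a*OE at 7 dpt (SD, n = 3), a ratio of 0.639 where that of the gene in the set was 0.0259. The second *SLC16A1*, *AVPR1A* and *ASB14* genes had ratios of 0.385, 0.394 and 0.466 at 7 dpt and 0.546, 0.465 and 0.864 at 7 mpt. At 7 dpt all 4 copies passed edgeR's quasi-likelihood test in the lower direction, with log2 differences between -0.99 (*BMP10*, adjusted p = 0.00608) and -1.71 (*SLC16A1*, adjusted p = 0.000176). At 7 mpt those of *AVPR1A* and *SLC16A1* did (adjusted p = 0.00981 and 0.0149), and those of *BMP10* and *ASB14* did not (0.0616 and 0.547). The difference between copies was not tested, and the lower members of the pairs are those the rule selected.

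When all genes that passed edgeR's filter on low counts were tested, 36 of the 54 members tested were called lower at 7 dpt, where 17.1% of 19647 genes were, and 39 of 52 at 7 mpt, where 12.2% of 18689 were. No member was called higher, where 20.2% of the genes were at 7 dpt and 14.2% at 7 mpt. The rule used this contrast, so nothing is read from these counts. Of the genes spread over the control libraries, *nme2b.2* was not called at 7 dpt and *SLC16A1* was not called at 7 mpt. The members not called or not tested were otherwise all of the 1-library classes.

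Wider lists that hold a member were counted over all their genes. Of 343 solute carrier genes tested at 7 dpt, 77 were called lower and 64 higher (median log2 difference -0.09), and of 324 at 7 mpt, 46 were lower and 55 higher (median 0.11). Of 36 fatty acid and lipid genes, 13 were lower and 5 higher at 7 dpt (median -0.48), and of 31 at 7 mpt, 10 were lower and 5 higher (median -0.48). Of 62 sarcomere genes, 14 were lower and 4 higher at 7 dpt (median -0.62), and of 61 at 7 mpt, 17 were lower and 3 higher (median -0.33). Of 59 genes of the Fgf, Wnt and Bmp families, 8 were lower and 10 higher at 7 dpt (median -0.10), and of 61 at 7 mpt, 8 were lower and 12 higher (median 0.22). The median over all genes tested was 0.02 at 7 dpt and 0.03 at 7 mpt. The skeletal muscle list, with 13 genes tested at 7 dpt, had a median of -6.68 there, where control library 2 stood apart, with *ckmb* called lower and *ckma* higher, and -0.79 at 7 mpt, where 2 of 11 were lower. The gut, gill and skin list had 1 of 8 genes lower and 1 higher at 7 dpt (median -1.39) and 1 lower at 7 mpt (median -0.38).

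The letters F and M of the 7 mpt library names were not used by the rule, but control library 4 of 7 mpt carries the letter M. The 19 genes with over 75% of control counts in that library were selected with a control mean raised by it. For them a difference between the letters, or in the effect between letters, is partly built in. Each genotype had 2 libraries of each letter. In edgeR's quasi-likelihood test over 20915 genes, 0 of the 57 members tested differed between the letters at an adjusted p under 0.05, with 16 at an unadjusted p under 0.05, and over all genes edgeR called 0.0143% lower in M and 0% higher. DESeq2 called 11 members, and 4.20% of the 18887 genes it tested. The 11 include *muc5.1*, *pkp3a*, *ptgdsb.1* and *si:dkey-65b12.6* of the 1-library class, so nothing is read from the 11 beside that share. For the difference between the letters in the effect of *il11a*OE, edgeR called 0 of 57 (7 at an unadjusted p under 0.05) and 0% of all genes in either direction. DESeq2 called 3 members, with *si:dkey-65b12.6* of the 1-library class among them, and 1.02% of all genes it tested, and nothing is read from these either. The share of all genes at an unadjusted p under 0.05 was not counted, so nothing is read from the 16 and the 7.

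The smallest p of the members in both tests belonged to *BMP10*. Its *il11a*OE libraries had 9.26 and 27.5 CPM with the letter F against 0.782 and 0.409 CPM with M, while the controls had 161 and 183 CPM with F against 254 and 214 CPM with M. The log2 difference between the letters was -2.07 (M minus F, edgeR, adjusted p = 0.0984), and the log2 effect of *il11a*OE differed by -5.39 (M minus F, edgeR, adjusted p = 0.188). For *arhgef9a* the letters differed in the controls, with 6.20 and 3.92 CPM in F against 22.3 and 25.6 CPM in M, and not in *il11a*OE, with 2.83 and 3.89 CPM against 3.15 and 1.94 CPM (difference in effect of -2.70, adjusted p = 0.248 in edgeR). *BPGM* was higher in M by 1.29 on the log2 scale (edgeR, adjusted p = 0.159), with controls of 103 and 145 CPM in F against 446 and 249 CPM in M. None of these differences passed edgeR's correction over all genes. DESeq2 called *BMP10*, *arhgef9a* and *BPGM* between the letters, and *BMP10* and *arhgef9a* for the difference in effect.

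**Figure D5:**
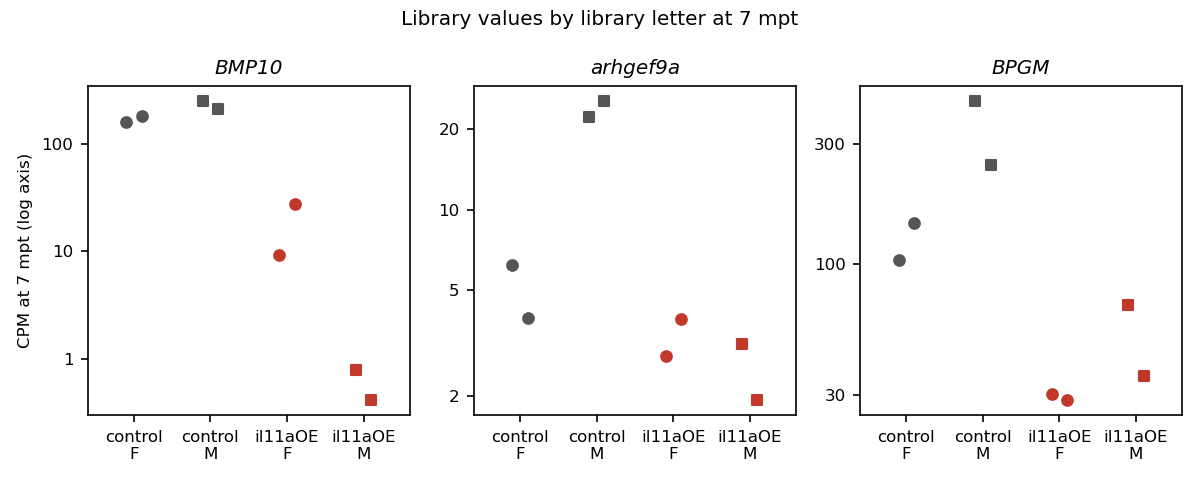
CPM at 7 mpt (log axes) of *BMP10*, *arhgef9a* and *BPGM* in the libraries with the letter F (circles) and M (squares), controls in grey and *il11a*OE in red, with 2 libraries per letter and genotype. The *il11a*OE libraries of *BMP10* lie at 9.26 and 27.5 CPM in F and below 1 CPM in M, and the controls of *arhgef9a* at 6.20 and 3.92 CPM in F and at 22.3 and 25.6 CPM in M.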

How the data were processed

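After adaptor trimming (Cutadapt) the authors mapped read pairs with HISAT2 on GRCz11 and assigned them to Ensembl exons using featureCounts 2.0.0. Strand was not used, and reads of several places or several genes were dropped. The deposited values were raw counts per gene, of read pairs at 7 dpt (61691132 to 80703699 per library) and of single mates at 7 mpt (73275884 to 130058630), so levels were compared only within a time point. At 7 mpt between 99.1% and 99.4% of the values above 0 were even, so most pairs entered as 2 counts. The tests took these as separate counts, and the effect on the 7 mpt p-values was not tested. Replicate libraries differed by more than sampling noise (52.9 to 370.1 chi-square per degree of freedom). No column was left unused.

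CPM was computed from column totals. Gene names came from a reference table that named 29266 of 32520 identifiers and 56 of the 58 genes, coordinates from the count tables (GRCz11). The members, role groups and lists were chosen with earlier results of these data known. The 25 members with the highest value of the lower of the 2 control means, the 3 nearest on each side of the limit of 0.25 and any member called for the letters were the genes named by rule (edgeR called no member for the letters), and the lists holding a member were described whole. Of the 58 genes, 1 that the rule would name is counted but not reported here. Every other member or relative named was chosen after its values were seen.

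Counts were tested with edgeR 4.0.16 (R 4.3.3, limma 3.58.1), using filterByExpr, TMM and the quasi-likelihood test with robust dispersions, and adjusted with the Benjamini-Hochberg method over all genes tested, at each time point alone and, for the letters, over the 8 libraries of 7 mpt as 4 groups. P-values measure the spread between libraries, which the labels do not tie to separate fish. The fits were tested on simulated counts that had the same dispersion for every gene and no outlying library. That check therefore does not cover genes with most control counts in a single library. The alternatives were DESeq2 1.42.0, its size factors, other filters, limits, group summaries and library totals, 1 letter, the letter as a covariate, the replicate number as a block and each library left out in turn, and, chosen after seeing the data, 2 control libraries left out together. No genome or sequence table was used here.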

Additional observations from a re-analysis of the deposited data

Results flagged for a closer look

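At 7 mpt, where each group had 4 libraries, Dixon's test marked a library far from the other 3 of its group in 29 of 116 groups of the 58 genes. The test's chance rate of about 1 in 20 holds for normally distributed values. Here the test was applied to CPM of genes chosen by their levels, and the share over all genes was not counted. Whether 29 of 116 is more than chance therefore cannot be read from the test. In 17 of the 29 the marked library was control library 4. Of these, 16 were genes with over 75% of the control counts in that library, a property that itself places it apart, and their values there were *agr1* (4.27 CPM), *anxa1b* (4.34 CPM), *epcam* (6.68 CPM), *icn2* (6.41 CPM), *krt1-19d* (4.27 CPM), *krt17* (4.34 CPM), *krt5* (118 CPM), *krt97* (15.9 CPM), *muc5.1* (7.38 CPM), *muc5.2* (20.8 CPM), *pkp3a* (4.34 CPM), *ptgdsb.1* (27.5 CPM), *si:dkey-193p11.2* (45.1 CPM), *si:dkey-247k7.2* (7.43 CPM), *si:dkey-248g15.3* (10.05 CPM) and *si:dkey-65b12.6* (7.56 CPM). The remaining one was *HEY1*, with 1.99 CPM in control library 4 against 0.72 to 0.824 CPM in the other controls.

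Another 12 groups had a different library apart. *hydin* had 16.0 CPM in control library 3, and the other controls had 2.94 to 4.79 CPM. *nme2b.2* had 389.8 CPM in control library 1, and the other controls had 88.1 to 112 CPM. Among *il11a*OE libraries, *cyld2* had 0.922 CPM in library 2 against 0.13 to 0.246 CPM in the others, *fgl2b* had 2.75 CPM in library 1 against 0.0819 to 0.503 CPM in the others, *SLC16A1* had 3.69 CPM in library 2 against 0 to 0.382 CPM in the others, *SLC25A4* had 3.35 CPM in library 3 against 0.199 to 0.328 CPM in the others and *ZDHHC2* had 2.1 CPM in library 3 against 0.328 to 0.449 CPM in the others. The rest were genes at 0 in the other 3 *il11a*OE libraries, a pattern that the test always marks. They were *krt1-19d* (0.0559 CPM in library 3), *muc5.1* (0.0273 CPM in library 4), *si:ch211-197n1.2* (0.149 CPM in library 3), *si:dkey-256e7.5* (0.0273 CPM in library 4) and *si:dkey-7c18.24* (0.0373 CPM in library 3).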

How the results depend on the processing

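The number of genes meeting the rule depended on the scale, the limits and the control libraries. With TMM-scaled totals 96 genes met it, with ratios of at most 0.33 or 0.5, 92 and 210, and all 58 genes were among each of these. With group medians 33 genes met it (27 of the 58), with every *il11a*OE library held to the limit 34 (all of the 58), with a control floor of 5 CPM 23 (all of the 58) and with letter F alone at 7 mpt 34 (29 of the 58). Leaving out 1 library at a time gave 32 to 64 genes, the lowest without control library 2 of 7 dpt (32, of which 29 of the 58) and without control library 4 of 7 mpt (35, of which 33), and 56 to 64 without any other. Without both of these libraries, an alternative chosen after seeing the data, 30 genes met it (25 of the 58).

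Of 1158 ratios of single genes under the alternatives, 14 turned above 1, in 8 genes of the 1-library class. With letter F alone at 7 mpt these were *si:dkey-65b12.6* (3.30), *anxa1b* (1.91), *krt17* (4.92) and *pkp3a* (1.43). Over libraries left out in turn, the 7 dpt ratio ran from 0.0669 to 1.13 for *anxa1b* and from 0.0213 to 2.85 for *krt17*. The 7 mpt ratio ran from 0.0774 to 1.42 for *si:dkey-65b12.6*, from 0.0994 to 1.40 for *anxa1b*, from 0.0389 to 1.23 for *icn2*, from 0.0455 to 1.02 for *epcam*, from 0.164 to 12.7 for *krt17*, from 0.0765 to 1.04 for *krt97*, from 0.129 to 5.62 for *pkp3a* and from 0.0039 to 1.02 for *muc5.2*, in each case highest without control library 2 of 7 dpt or control library 4 of 7 mpt.

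The counts of members called lower by edgeR (36 and 39) ran from 32 to 42 at 7 dpt and from 27 to 42 at 7 mpt under the alternatives. With the replicate block they were 36 and 38. Libraries sharing a number did not deviate together in every pair (correlations of -0.0618 to 0.118 at 7 dpt and -0.0128 to 0.153 at 7 mpt), so the numbers were not taken as pairs. For the letters, edgeR called 0 members in most settings, 1 (*arhgef9a*) without a filter beyond 1 count and 0 to 1 with a library left out (*BMP10* without *il11a*OE library 1), and DESeq2 called 11 (793 of all genes). For the letter difference in the effect of *il11a*OE these were 1 (*arhgef9a*), 0 to 1 (*BMP10*, without *il11a*OE library 1 or 2) and 3 with DESeq2 (*arhgef9a*, *BMP10* and *si:dkey-65b12.6*, with 193 of all genes). The cause was not tested. With 2 libraries per letter and genotype and 3 or 4 per group, real differences can go uncalled, and the size at which this happens was not computed.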
